A study of Mus musculus with 20 samples.

Results

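Variation among stressed mice was examined in colonic intestinal epithelial cells (IECs), using only the 10 RNA sequencing libraries of mice exposed to the social disruption stressor (Str) out of the 20 libraries of the series, 1 library per mouse. They are SV1, SV2, SV4, SV5, SV6, SL1, SL2, SL4, SL5 and SL6, taken by the first letter of the column name, S. Str mice were adult male C57BL/6NCrl mice with a conventional microbiota, housed with an aggressive male of the same strain for 2 h/d over 6 d, and the 10 home cage control (Con) mice were of the same strain and were not handled. IECs were isolated with magnetic beads as cells that carry the epithelial adhesion protein EpCAM and lack the leukocyte protein CD45. The second letter of each name, V or L, and its number are not explained in the sources used here, nor is it given which mice shared a cage. The study placed the aggressor into a cage of several resident mice, so Str mice were stressed in groups. Since the cages of single mice are not known, the p-values treat each mouse as independent, which cage mates may not be.

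Counts in the Str libraries summed to between 20390091 and 24508215, and no pair of Str libraries was alike within sampling noise (chi-square per gene 11.2 to 46.9 over 45 pairs). Correlations of log2 CPM between Str libraries ran from 0.979 (SL4 with SV6) to 0.994 (SL6 with SV2). The 10 epithelial markers summed to between 17020 and 21790 CPM in Str libraries. Only 2 of 13 T cell markers and 2 of 11 B and plasma cell markers had a row in the table under the symbol listed. The T cell sum was at most 2.27 CPM. *Jchain*, also a B and plasma cell marker, had a row under its older symbol *Igj*. Levels are in CPM, the reads of a gene scaled to a common library size with TMM factors, spread is the standard deviation (SD) of log2 CPM, and levels of Str are scaled over the 10 Str libraries unless they are set against Con.

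In many genes the Str library SL4 stood apart from the other 9 and went against its label. Of the 15876 genes in the table, 180 were higher in each of the 9 other Str libraries than in every Con library, and for 136 of these SL4 lay within the range of Con. That count was made for SL4 alone. On the first principal component, the main axis of variation of the genes of largest SD (46.1% of their variance), SL5 lay beside SL4 (scores -19.8 and -19.3).

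STAT3 is a transcription factor that cytokines such as IL-22 and IL-6 activate through JAK kinases. In gut epithelium it switches on antimicrobial lectins of the REG3 family, mucosal repair genes and its own inhibitor SOCS3, and it can raise transcription of its own gene. *Reg3b* and *Reg3g* lie in the same region of chromosome 6. Their secreted C-type lectins bind bacteria at the mucosal surface, and both genes respond to IL-22.

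*Reg3b* varied far more among Str mice than *Stat3*. *Stat3* (gene ID 20848, chromosome 11 from 100886806 to 100939594 in GRCm38.p6) had its lowest level in SL4 at 149 CPM, a median of 276 CPM and its highest level in SL2 at 306 CPM. Only SL4 lay within the 130 to 155 CPM of the 10 Con libraries, and SL5 (209 CPM) and SV5 (225 CPM) were the next lowest Str libraries. The SD of *Stat3* over the Str libraries was 0.32, rank 2406 of 13516 genes, and 0.18 without SL4. *Reg3b* (gene ID 18489, chromosome 6 from 78370885 to 78373466) had 21.9 CPM in SL4, a median of 322 CPM and 2273 CPM in SV1, a 104-fold span. Its SD of 1.76 was the 4th largest of all ranked genes, and it was 1.19 without SL4. In Con libraries *Reg3b* had 1.23 to 58.3 CPM, so 9 of the 10 Str libraries were above every Con library.

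**Figure D1:**
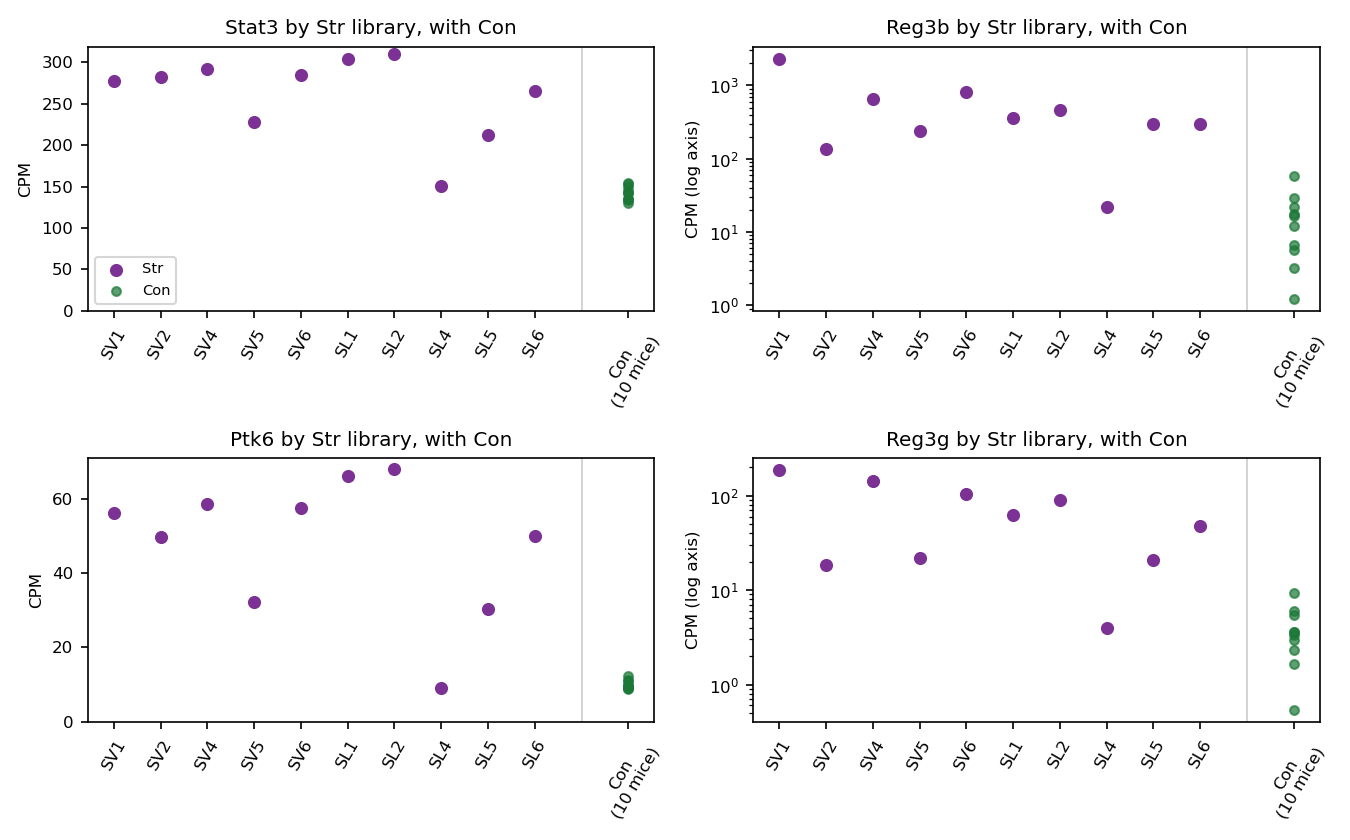
CPM of *Stat3*, *Ptk6* (linear axes), *Reg3b* and *Reg3g* (log axes) in each Str library (purple, left) and in the 10 Con libraries (green, right), scaled by TMM over all 20 libraries, 1 point per mouse. In each panel SL4 is the lowest Str library and the only one within the range of Con.

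The 250 bases before the starts of *Reg3b* and *Reg3g* are shown because these genes moved together among the mice. In capitals are TTCNNNGAA, a motif that STAT proteins can bind and that reads the same on both strands, which the window of *Reg3b* holds 129 bases before its start and the window of *Reg3g* does not hold, and TATAAA on the strand of the gene, which lies 29 bases before the start of *Reg3b* and 27 before that of *Reg3g* with no overlap between the motifs. Over all 32851 RefSeq windows 7.02% hold TTCNNNGAA and 7.59% hold TATAAA. A match is a description, not a binding site. Aligned by distance from the start with no gaps, 83 of the 250 bases are the same.
Reg3b, chr6:78370635-78370884, plus strand, GRCm38.p6: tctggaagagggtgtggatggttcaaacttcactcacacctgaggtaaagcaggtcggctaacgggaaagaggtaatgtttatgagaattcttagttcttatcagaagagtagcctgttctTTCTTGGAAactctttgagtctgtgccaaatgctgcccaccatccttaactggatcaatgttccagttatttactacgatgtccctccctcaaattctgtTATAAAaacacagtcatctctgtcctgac
Reg3g, chr6:78468875-78469124, minus strand, GRCm38.p6: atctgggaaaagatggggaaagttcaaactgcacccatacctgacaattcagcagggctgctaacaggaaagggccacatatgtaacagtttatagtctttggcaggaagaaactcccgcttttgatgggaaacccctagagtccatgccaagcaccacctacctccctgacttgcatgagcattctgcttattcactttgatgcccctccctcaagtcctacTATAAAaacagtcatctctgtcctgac

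The other genes that the study followed by PCR or named beside them differed in how far the Str mice spread. *Reg3g* had 3.92 CPM in SL4, a median of 53.7 CPM and 185 CPM in SV1 (SD 1.69). *Nos2*, the gene of inducible nitric oxide synthase, had 2.61 CPM in SV5, a median of 11.6 CPM and 18.7 CPM in SL5 (SD 0.93), and SV5 was the only Str library within the Con range of 0.624 to 3.26 CPM. The library lowest for *Nos2* was thus not the one lowest for *Stat3*. *Duoxa2*, the maturation factor of the hydrogen peroxide producing oxidase DUOX2, had 21.6 to 89.8 CPM (median 64.2, SD 0.64), and *Duox2* itself had 200 to 496 CPM (median 410, SD 0.45). *Fut2*, a fucosyltransferase of mucin glycans, had 88.9 to 236 CPM (median 151, SD 0.53) in Str, and all 10 Str libraries were above the 64.8 to 86.7 CPM of Con. *Saa1*, an acute phase protein, had 390 to 1130 CPM (median 758, SD 0.45), and the cytokine gene *Il18* had 91.0 to 193 CPM (median 166, SD 0.36). SL4 was the lowest Str library for all of these except *Nos2*.

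Most genes varied little among Str mice. Over 13516 genes with a mean of at least 1 CPM the median SD was 0.17, and 51 genes had an SD over 1. The lowest and the highest Str library differed by more than 2-fold for 2553 genes (18.9%) and by more than 4-fold for 286. The SD that counting alone would give was, for the median gene, 0.439 times the SD observed. Among the 20 genes of largest SD it was at most 0.471 times the SD.

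**Figure D2:**
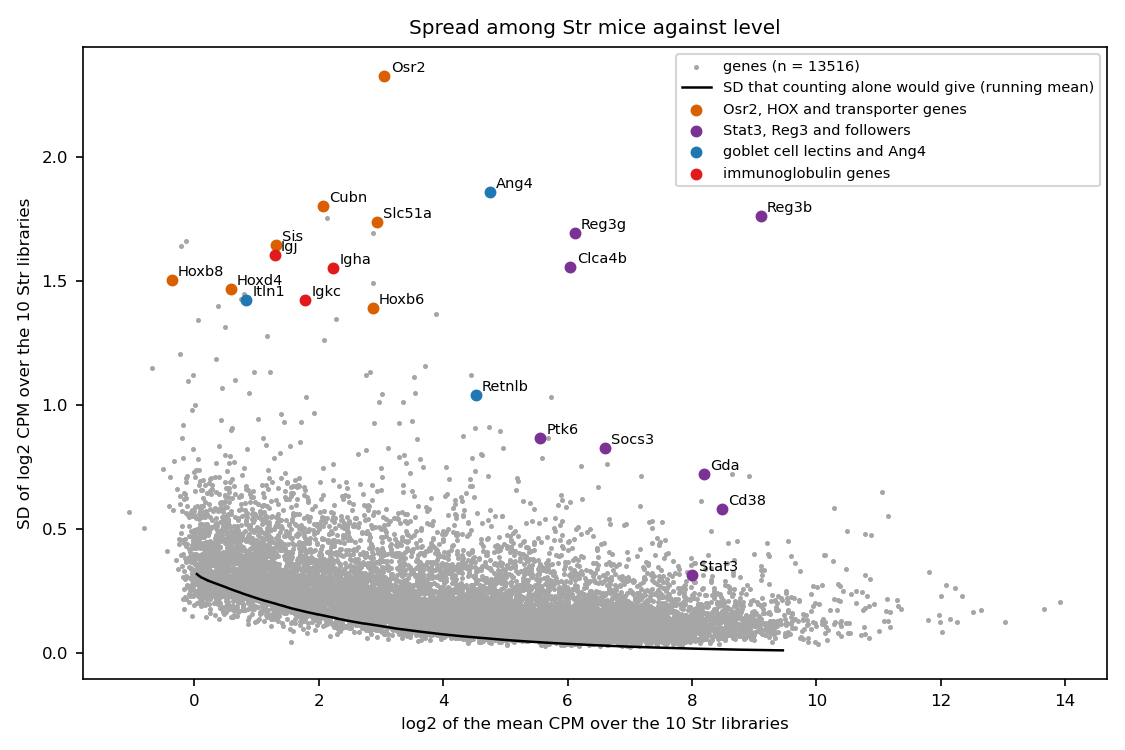
SD of log2 CPM over the 10 Str libraries against the log2 of the mean CPM for 13516 genes, with named genes in colour and the SD expected from counting alone as a black line (running mean). *Osr2* (SD 2.33), *Ang4* (1.86) and *Reg3b* (1.76) lie far above the line, and *Stat3* (0.32) lies much lower.

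The gene that varied most was *Osr2*, which encodes a zinc finger transcription factor of development. It had 0.23 CPM in SL2, a median of 3.02 CPM and 36.3 CPM in SL5 (SD 2.33), and SL4 (19.7 CPM) and SV1 (12.4 CPM) were the next highest. The 10 Con libraries spanned 1.08 to 36.8 CPM, so SL2, SL1 and SL6 lay below every Con library and the other Str libraries reached to the top of the range of Con. Of the 20 genes of largest SD, 11 followed *Osr2* with a Pearson r over 0.8 across the 10 libraries, as did 40 of the first 100. The share over all genes was 1.98%. These correlations share libraries and depth and are given as a description, chosen after the values were seen.

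Genes with that pattern included transporters and digestive genes known from the small intestine. *Cubn*, which encodes the vitamin B12 receptor cubilin, had 0.413 CPM in SL1, a median of 0.945 CPM and 22.2 CPM in SL5 (SD 1.80). *Slc51a*, a subunit of the bile acid exporter, had 0.644 CPM in SL2, a median of 3.71 CPM and 30.9 CPM in SL5 (SD 1.74). *Slc10a2*, the apical bile acid importer, had 2.61 CPM in SL1, a median of 9.74 CPM and 47.5 CPM in SL5 (SD 1.36). *Sis*, which encodes the brush border enzyme sucrase-isomaltase, had 0.362 CPM in SV6, a median of 0.613 CPM and 14.2 CPM in SL5 (SD 1.64). In each of these genes SL5 was the highest library, and SL4 was the second highest. *Grin3a* (0.735 to 34.8 CPM), *Cyp4b1* (1.31 to 30.2 CPM) and *Nts* (0.272 to 7.24 CPM) were also highest in SL5. The cytochrome genes *Cyp3a44* and *Cyp3a25* ranked among the first 20 as well. They are members of a family of similar genes, had means of only 0.91 and 0.86 CPM in Str, and are uncertain.

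HOX genes, whose expression marks position along the body and gut axis, split into groups. All 27 measured HOX genes were examined after *Osr2* was seen to vary most. *Hoxb3*, *Hoxb4*, *Hoxb5*, *Hoxb6*, *Hoxb7*, *Hoxb8*, *Hoxd3*, *Hoxd4* and *Hoxd8* followed *Osr2* with r between 0.84 and 0.98. *Hoxb6* had 1.15 CPM in SL2, a median of 4.76 CPM and 25.1 CPM in SL5 (SD 1.39), and *Hoxb3* had 0.598 CPM in SL2, a median of 3.00 CPM and 16.9 CPM in SL5 (SD 1.35). The posterior genes *Hoxd12* (r = -0.84), *Hoxd13* (r = -0.88) and *Hoxa13* (r = -0.77) ran the other way over a narrower range. *Hoxd13* had 24.4 CPM in SL5, a median of 31.2 CPM and 36.6 CPM in SL1 (SD 0.19). The HOXA genes from *Hoxa2* to *Hoxa7* did not share the pattern, with r between -0.44 and 0.24. HOX genes overlap within their clusters and the strand setting of the counting is not stated, so reads of neighbours cannot be told apart in full. Spread of *Hoxb6* among Con mice was also large (SD 1.05), and the test of the difference in spread did not pass for it.

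Some genes of goblet and crypt secretory cells had a pattern led by another mouse, SV2. *Ang4*, an antimicrobial ribonuclease, had 1.63 CPM in SV6, a median of 7.52 CPM and 156 CPM in SV2 (SD 1.86). *Itln1*, which encodes the sugar-binding lectin intelectin, had 0.25 CPM in SV4, a median of 1.00 CPM and 8.63 CPM in SV2 (SD 1.42), and *Retnlb*, the goblet cell peptide RELMβ, had 5.27 CPM in SL4, a median of 18.3 CPM and 74.4 CPM in SV2 (SD 1.04). SV2 was the highest library for all 3 genes, and SL5 was the next highest for *Ang4* and *Itln1*. The 12 measured goblet and secretory markers summed to their highest in SV2 (19156 CPM) and to their lowest in SV6 (11358 CPM). In Con *Ang4* also spread widely, with 4.03 to 199 CPM. In bulk RNA fewer cells of a type and less RNA per cell cannot be told apart.

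SL4 alone was high in immunoglobulin genes. *Igha*, the constant region of IgA heavy chains, had 0.498 CPM in SV6, a median of 1.63 CPM and 32.7 CPM in SL4. *Igkc*, the kappa light chain constant region, had 0.543 to 1.70 CPM in the other 9 libraries and 23.7 CPM in SL4, and *Igj*, the joining chain that is an older symbol of Jchain, had 17.0 CPM in SL4 and a median of 0.84 CPM. All 3 are plasma cell transcripts, and 1 Con library reached 15.2 CPM of *Igha*. The 2 plasma cell list members found under their listed symbols, *Igha* and *Igkc*, summed to 1.04 CPM in SV6, a median of 2.75 CPM and 56.5 CPM in SL4. That sum leaves out *Igj*.

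**Figure D3:**
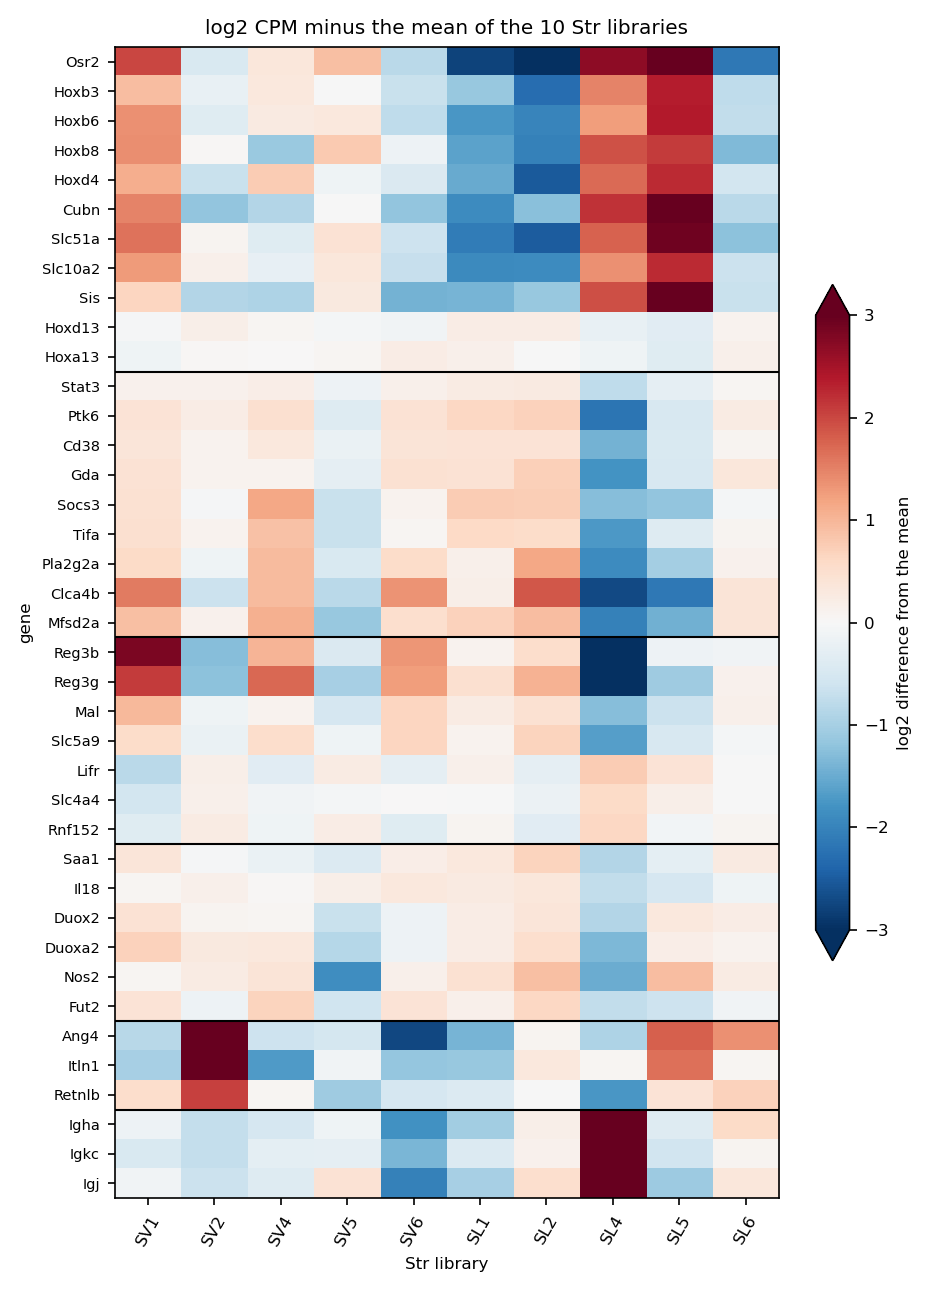
Log2 CPM minus the mean of the 10 Str libraries for 39 genes, with red above and blue below the mean and colours capped at 3. The blocks are, from the top, *Osr2* and HOX genes with transporters, *Stat3* and its followers, *Reg3b* and its followers, further genes of the study, goblet and secretory genes, and immunoglobulin genes. SL4 is blue for *Stat3*, *Ptk6*, *Cd38*, *Reg3b* and *Reg3g* and red for immunoglobulins, SL5 is red for *Osr2*, *Hoxb6* and *Cubn*, and SV2 is red for *Ang4*, *Itln1* and *Retnlb*.

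Which genes followed *Stat3* was tested by the slope of each gene on log2 CPM of *Stat3* across the 10 Str libraries (edgeR quasi-likelihood, Benjamini-Hochberg over 15875 genes, adjusted p under 0.05). Higher with *Stat3* were 223 genes (1.4% of those tested), and lower with it were 153 (0.964%), together 2.37%. A slope is a log2 change in the gene per 1 unit of log2 *Stat3*, and it is no stress against control test. Without SL4 the counts were 33 and 32, of which 31 and 16 were among the calls with all 10 libraries. Without SL2 they were 125 and 57, and without SL5 they were 151 and 89. Without both libraries farthest from the median of *Stat3*, SL4 and SL5, *Ptk6* alone passed (adjusted p = 0.0439). Of the 223 genes 29, and of the 153 genes 8, were called in every one of the 10 fits that left out 1 library.

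The closest follower was *Ptk6*, which encodes a cytoplasmic tyrosine kinase of differentiated epithelial cells that can phosphorylate STAT3 (gene ID 20459, chromosome 2 from 181195124 to 181202789). It had 9.04 CPM in SL4, a median of 52.4 CPM and 67.2 CPM in SL2, with SL5 and SV5 next lowest, so the order of the mice was nearly that of *Stat3* (rho = 0.964). Its slope was 2.67 (SE 0.15, adjusted p = 2.09e-06 from edgeR), and its Pearson r of 0.99 was 0.976 without SL4 and SL5. Within the 5 V and the 5 L libraries r was 0.971 and 0.992. *Ptk6* still passed without SL4 (adjusted p = 7.85e-04 from edgeR). In Con it had 8.84 to 12.4 CPM.

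Other close followers spanned enzymes, receptors and lipid genes. *Cd38*, an ectoenzyme that consumes NAD, had 125 CPM in SL4, a median of 392 CPM and 451 CPM in SL2 (slope 1.81, SE 0.12, adjusted p = 9.30e-06 from edgeR). The guanine deaminase gene *Gda* had 77.6 CPM in SL4, a median of 313 CPM and 436 CPM in SL2 (slope 2.22, SE 0.19, adjusted p = 1.12e-04 from edgeR). Both kept SL4 far below the other 9 libraries, and both passed without it (adjusted p = 0.0144 and 0.0323). *Gna14*, a G protein subunit (slope 1.63), *Zdhhc13*, a palmitoyltransferase (slope 1.21), *Pgs1*, a mitochondrial phospholipid synthase (slope 1.37), and *Cpn2*, a carboxypeptidase N subunit (slope 3.19), also passed with and without SL4. *Clec2h*, a C-type lectin of gut epithelium, had 302 CPM in SL4 and a median of 592 CPM, and it lost its call without SL4 (adjusted p = 0.0647 from edgeR). *Mfsd2a*, a lysophospholipid transporter, had 4.21 CPM in SL4, a median of 23.9 CPM and 37.0 CPM in SV4 (slope 3.43, SE 0.41, adjusted p = 0.00174 from edgeR), and it was among the calls in all 10 fits that left out 1 library.

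*Alpk1* and *Tifa*, neighbouring genes on chromosome 3, followed *Stat3* as well. ALPK1 is a kinase that senses bacterial heptose metabolites, and it phosphorylates the adaptor TIFA, which activates NFκB. *Alpk1* had 42.2 CPM in SL4, a median of 95.9 CPM and 116 CPM in SL2 (slope 1.29, SE 0.10, adjusted p = 3.52e-05 from edgeR). *Tifa* had 27.0 CPM in SL4, a median of 95.2 CPM and 164 CPM in SV4 (slope 2.32, SE 0.24, adjusted p = 4.31e-04 from edgeR). Both passed without SL4, with adjusted p of 0.0255 and 0.0415. For both genes 9 Str libraries were above every Con library and SL4 lay within the range of Con. Of 21 measured NFκB subunits, inhibitors and adaptors, 3 were higher with *Stat3*, *Tifa*, *Bcl3* and the inhibitor *Tnip3* (slope 1.06), and *Traf1*, an adaptor of TNF receptors, was lower (slope -1.05). Of 18 wound-associated epithelial genes, *Ptk6*, *Ly6a* and *Anxa1*, which encodes annexin A1 (slope 0.68), were higher and 0 were lower. Beside both lists, 1.4% of all genes tested were higher and 0.964% lower. *Tnip3*, *Traf1* and *Anxa1* lost their call without SL4.

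**Figure D4:**
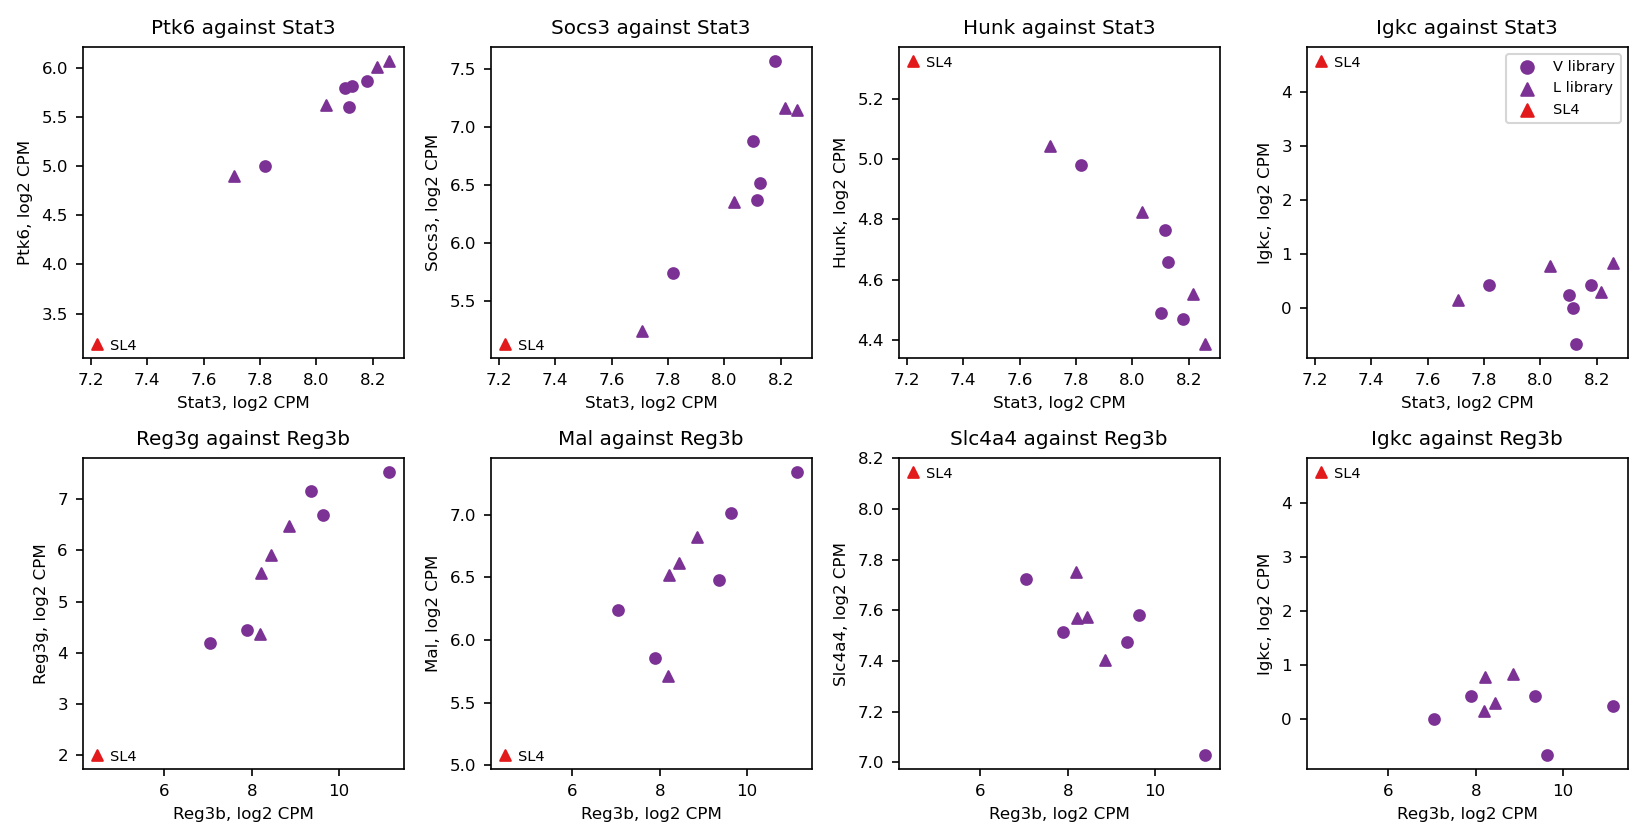
Log2 CPM of 8 gene pairs across the 10 Str libraries, with *Stat3* (upper row) or *Reg3b* (lower row) on the x axis, V libraries as circles, L libraries as triangles and SL4 in red. *Ptk6* and *Socs3* rise with *Stat3* and *Hunk* falls with it over all libraries, *Reg3g* rises with *Reg3b*, and *Igkc* is flat in both panels but for SL4.

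Among feedback and target genes of STAT3, 5 of 17 measured were higher with *Stat3* and 0 were lower, and the median r of the list was 0.47, against -0.01 over all genes tested. *Socs3*, the inhibitor that STAT3 induces, had 34.9 CPM in SL4, a median of 87.0 CPM and 190 CPM in SV4 (slope 2.31, SE 0.37, adjusted p = 0.00727 from edgeR). It differed from most followers in that SL5 (37.6 CPM) was almost as low as SL4, and it passed without SL4 (adjusted p = 0.0144). *Sbno2*, a corepressor that acts downstream of IL-10 and STAT3 (slope 1.25), *Bcl6*, a transcriptional repressor (slope 1.26), *Bcl3*, a nuclear partner of NFκB (slope 0.99), and *Il4ra*, the IL-4 receptor chain (slope 0.71), passed with all libraries. None of the 4 passed without SL4, where their slopes were 1.73 (*Sbno2*, adjusted p = 0.0504), 1.22 (*Bcl6*, 0.266), 1.38 (*Bcl3*, 0.0697) and 0.98 (*Il4ra*, 0.173). Of 13 receptors and kinases upstream of STAT3, 0 followed *Stat3* by edgeR (median r -0.21), and of 5 other STAT genes 0 did, counts that at 2.37% of all genes called are near the background. The upstream gene that varied most was *Osmr*, a subunit of the oncostatin M receptor, with 2.12 CPM in SL5, a median of 4.68 CPM and 6.39 CPM in SL2 (SD 0.48, the largest of the 13).

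The STAT motif TTCNNNGAA, found in 7.02% of all RefSeq windows (GRCm38.p6), was also searched in the 250 bases before the starts of the followers. Among followers with a window that were named above and passed without SL4, *Alpk1*, *Cpn2* and *Socs3* held a match, and *Cd38*, *Gda*, *Gna14*, *Pgs1*, *Mfsd2a* and *Tifa* held none. *Bcl6* and *Sbno2*, which did not pass without SL4, held one in at least 1 of their windows. For *Alpk1*, *Cpn2* and *Socs3* the first match of the window is shown with 10 bases on each side, because those genes were higher with *Stat3*. The start used for *Socs3* lies within the annotated span of the gene (117966079 to 117970336), so its match lies inside that span. Capitals mark the motif, and each is written 5′ to 3′ on the strand of the gene.
Alpk1, chr3:127780623-127780651, minus strand, 114 bases before the start: cttgtgaaagTTCAGGGAAactccttatt
Cpn2, chr16:30267593-30267621, minus strand, 79 bases before the start: cttggtgacaTTCCGGGAAcagtcgatcc
Socs3, chr11:117969502-117969530, minus strand, 154 bases before the start: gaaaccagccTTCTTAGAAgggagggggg

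Antimicrobial and mucosal defence genes were split. Of 15 measured antimicrobial genes, 3 were higher with *Stat3* and 0 lower, against 1.4% and 0.964% of all genes tested. *Reg3g* had a slope of 4.92 (SE 1.03, adjusted p = 0.0258 from edgeR), and without SL4 its slope was 4.95 (adjusted p = 0.267). *Pla2g2a* had 1.64 CPM in SL4, a median of 6.98 CPM and 14.3 CPM in SL2 (slope 2.94, SE 0.38, adjusted p = 0.00203 from edgeR), it passed without SL4, and RefSeq lists it as a transcribed pseudogene in this genome. *Slpi*, a secreted inhibitor of neutrophil proteases, had 0.629 CPM in SL4, a median of 4.14 CPM and 6.00 CPM in SV1 (slope 2.63, adjusted p = 0.0223), but it lost its call without SL4 (adjusted p = 0.395), and its r was 0.09 without SL4 and SL5. *Ang4* and *Itln1* did not pass for either gene.

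Of 22 measured mucin and glycan chain genes, 4 were higher with *Stat3* and 0 lower, with a median r of 0.55. The shares over all genes tested were 1.4% higher and 0.964% lower. *Fut2* had a slope of 1.39 (SE 0.27, adjusted p = 0.0171 from edgeR), and *B3galt5*, a galactosyltransferase, had 626 CPM in SL4 and a median of 1183 CPM (slope 1.18, SE 0.15, adjusted p = 0.00194 from edgeR). Both were called in all 10 fits that left out 1 library. *Muc13*, a transmembrane mucin (slope 0.99), and *B3gnt7*, which extends glycan chains (slope 0.61), were the other 2, and both lost the call without SL4.

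Of 16 acute phase and inflammatory genes, 4 were higher with *Stat3* and 0 lower, with a median r of 0.69. For this and the next 2 lists, the shares over all genes tested were 1.4% higher and 0.964% lower. The 4 acute phase and inflammatory genes were *Il18* (slope 1.00), *Saa1* (slope 1.26), *Tnfrsf1b*, a TNF receptor (slope 0.85), and *Tac1*, the precursor of substance P (slope 1.48). *Tnfrsf1b* alone of these passed without SL4 (adjusted p = 0.0255 from edgeR). Of 38 interferon-stimulated genes 3 were higher, *Zbp1*, *Irf9* and *Gbp7*, and 0 were lower, with a median r of 0.20. *Zbp1*, a sensor of Z-form nucleic acids, had 7.49 CPM in SL4, a median of 26.7 CPM and 44.1 CPM in SL2, and without SL4 its adjusted p was 0.341. *Irf9* and *Gbp7* also lost their call without SL4 (adjusted p = 0.450 and 0.315 from edgeR). Of 8 genes that produce reactive oxygen or nitric oxide, *Duoxa2* passed (slope 1.57, adjusted p = 0.0437 from edgeR, 0.568 without SL4), whereas *Duox2* (slope 0.95, adjusted p = 0.127) and *Nos2* (slope 1.45, adjusted p = 0.309) did not.

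The surface marker genes *Ly6a* (slope 2.07) and *Ly6g* (slope 1.75) were higher with *Stat3*, and both lost the call without SL4. *Ly6g* is also a neutrophil marker, and the neutrophil list had only 2 of 12 members in the table, which summed to 30.2 CPM in SL4 and 124 CPM in SL2. Genes of the LY6 family share near-identical sequence, so their counts are uncertain. *Cd14*, a coreceptor for bacterial lipopolysaccharide, was higher with *Stat3* (slope 1.16, adjusted p = 0.0253 from edgeR), and its adjusted p was 0.0832 without SL4.

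Among the genes lower with *Stat3* were *Hunk* and *Entpd5*, both highest in SL4. *Hunk*, a protein kinase, had 20.8 CPM in SL2, a median of 26.1 CPM and 40.0 CPM in SL4 (slope -0.88, SE 0.12, adjusted p = 0.00338 from edgeR), and *Entpd5*, a nucleotide hydrolase of the endoplasmic reticulum, had 178 CPM in SL2, a median of 211 CPM and 310 CPM in SL4 (slope -0.76, SE 0.12, adjusted p = 0.00616 from edgeR). Both were called in all 10 fits that left out 1 library, and for *Hunk* 9 Str libraries were below every Con library. *Kat6b*, a histone acetyltransferase (slope -0.69), *Ank*, a pyrophosphate transporter (slope -1.20), and *Auts2* (slope -0.94) passed with all libraries and not without SL4. The same held for *Cyp2c55*, a colonic cytochrome P450 (slope -1.26), *Fabp2*, a fatty acid carrier of enterocytes (slope -0.82), and *Hoxb9* (slope -0.45), the only member of the HOX list to pass. It also held for *Kit* (slope -0.80), a receptor gene on the mast cell list, of which only 2 of 7 members were measured.

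Of 18 genes of fatty acid oxidation and ketogenesis, 4 were lower with *Stat3* and 0 higher, against 0.964% and 1.4% of all genes tested. The median r was -0.66 against -0.01 over all genes. *Acaa1b* (slope -3.23) and *Ehhadh* (slope -0.63), both of peroxisomal oxidation, and *Pdk4*, which restrains pyruvate oxidation and is also on the glucocorticoid list (slope -1.87), were among the 4. All 4 lost the call without SL4 and with *Osr2* as a further covariate.

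The immunoglobulin genes had steep negative slopes, -4.40 for *Igha*, -4.25 for *Igkc* and -4.37 for *Igj*, and those slopes rest on SL4. Without SL4 the slope of *Igha* was -0.46 and that of *Igkc* was 0.31, and neither passed. The same library was lowest in *Stat3* and highest in plasma cell transcripts, and the part of these transcripts in other slopes was not tested.

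No gene passed by edgeR for core clock genes (0 of 17), immediate early genes (0 of 17), heat shock chaperones (0 of 9), cell cycle genes (0 of 21), cholesterol synthesis (0 of 20) or endoplasmic reticulum stress (0 of 13). With 2.37% of all genes called, 0 of lists of this size is near the background. Across all genes 2674 had an unadjusted p under 0.05, and DESeq2 called 445 higher and 432 lower with *Stat3*.

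*Osr2* ran against *Stat3* (r = -0.71, rho = -0.81), although its own slope did not pass (adjusted p = 0.104 from edgeR). Of the 153 genes lower with *Stat3*, 54 had an r over 0.8 with *Osr2*, against 1.98% of all genes. With *Osr2* as a second covariate, an alternative chosen after the data were seen, 18 genes were higher with *Stat3* and 5 lower, and 17 of the 18 and 3 of the 5 were among the calls without it. *Ptk6*, *Cd38*, *Alpk1*, *Gda*, *Tifa* and *Mfsd2a* passed in that fit, and *Socs3* (adjusted p = 0.118) and *Fut2* (adjusted p = 0.186) did not. With *Osr2* and without SL4, 4 genes passed, *Ptk6*, *Mfsd2a* and *Socs3* higher and *Ankrd37* lower.

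*Reg3b* went with *Stat3* only loosely once SL4 was set aside. Across the 10 Str libraries r was 0.752 and rho 0.588 (permutation p = 0.0224 for r, 0.0663 after Benjamini-Hochberg adjustment over 408 relations, a family that holds genes chosen for small p and so adjusts mildly). Without SL4 r was 0.305, and without SL4 and SL5 it was 0.257, so the size of r depends on SL4. The SD of *Stat3* was also smaller without SL4 (0.18 against 0.32), and a narrower range by itself lowers r. Within the V libraries r was 0.365 and within the L libraries, which hold SL4, it was 0.912. The slope of *Reg3b* on *Stat3* was 4.62 (SE 1.5, adjusted p = 0.13 from edgeR). SV1, with the highest *Reg3b* (2273 CPM), had a *Stat3* level of 275 CPM, whereas SV2 with 131.5 CPM of *Reg3b* had 277 CPM of *Stat3*.

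*Reg3b* was tested in the same way, with 4 genes higher (0.0252% of 15875) and 6 lower (0.0378%, together 0.063%) by edgeR, 2364 genes at an unadjusted p under 0.05, and 104 higher and 87 lower by DESeq2. With *Osr2* as a covariate 24 genes were higher with *Reg3b* and 12 lower. *Reg3g* was the closest (slope 0.93, SE 0.10, adjusted p = 0.00895 from edgeR, r = 0.947, rho = 0.976), and its r was 0.898 without SL4 and SV1, the libraries farthest from the median of *Reg3b*. The higher genes were completed by *Mal*, a lipid raft protein of apical transport (33.8 CPM in SL4, median 90.3, 162 CPM in SV1, slope 0.34), *Slc5a9*, a sodium-coupled sugar transporter (10.5 CPM in SL4, median 34.3, 53.2 CPM in SL2, slope 0.36), and *Daglb*, a diacylglycerol lipase (27.8 CPM in SL4, median 49.9, 66.0 CPM in SV4, slope 0.20). Without SL4 none of the 4 passed, and their slopes were 0.95 for *Reg3g*, 0.33 for *Mal*, 0.26 for *Slc5a9* and 0.17 for *Daglb*. *Mal*, *Slc5a9*, *Daglb* and *Reg3g* were also higher with *Stat3*, and none of them passed for it without SL4 (adjusted p = 0.195, 0.152, 0.446 and 0.267 from edgeR).

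Lower with *Reg3b* were *Igkc*, *Igha* and *Igj*, *Rnf152*, a lysosomal ubiquitin ligase (slope -0.17), *Slc4a4*, a sodium bicarbonate cotransporter (slope -0.15), and *Lifr*, the receptor of leukaemia inhibitory factor, which signals through STAT3 (slope -0.23, SE 0.03, adjusted p = 0.034 from edgeR). *Lifr* had 7.56 CPM in SV1, a median of 14.1 CPM and 22.7 CPM in SL4, and *Slc4a4* had 131 CPM in SV1, a median of 190 CPM and 283 CPM in SL4. SV1 and SL4 were the ends of both genes as of *Reg3b*. Leaving out SV2 or SV5 gave 6 genes each, SL1 gave 5, SV4 and SV6 gave 2 each and SL6 gave *Reg3g* alone. Without SL4 edgeR called 0 genes for *Reg3b*, with 1209 at an unadjusted p under 0.05. The slopes of *Rnf152*, *Slc4a4* and *Lifr* were then -0.17, -0.15 and -0.29, whereas those of *Igkc*, *Igha* and *Igj* were -0.05, -0.04 and -0.05. With the letter V or L as a covariate it also called 0, with 1747 at an unadjusted p under 0.05.

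With both covariates in 1 fit, 20 genes were higher with *Stat3* beside *Reg3b* and 31 were lower, and all 20 of the higher and 9 of the 31 lower genes were among the genes called without *Reg3b*. *Ptk6* (slope 2.40, adjusted p = 7.08e-05 from edgeR), *Cd38* (slope 1.51) and *Alpk1* (slope 1.28) led the higher genes. Of the 31 lower genes, 30 had an r over 0.8 with *Osr2*, and they included *Hoxb7* (slope -5.28, adjusted p = 0.00522 from edgeR), *Cubn* (slope -9.39), *Osr2* itself (slope -9.16) and *Prap1* (slope -5.61), a secreted protein of gut epithelium. Leaving out SV1, SL1, SL2, SL5 or SL6 lowered the 51 genes to 17, 7, 8, 15 and 12, and leaving out SV2 raised them to 127. For *Reg3b* beside *Stat3* edgeR called 0 genes, with 1100 at an unadjusted p under 0.05, and the smallest adjusted p was that of *Reg3g* (slope 0.70, adjusted p = 0.133). Without SL4 *Reg3g* alone passed in that fit (slope 0.80, SE 0.08, adjusted p = 0.00541 from edgeR), without SV4 it alone passed too (adjusted p = 0.024), and without SV2 the fit called 81 genes.

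Markers of other cells moved with *Reg3b* in part, and their part in these slopes was not tested. Fibroblast markers (8 of 8 measured) summed to 196 CPM in SV1, a median of 441 CPM and 515 CPM in SL4, and smooth muscle markers (7 of 7) to 44.5 CPM in SV1, a median of 78.6 CPM and 113 CPM in SL4. Endothelial markers (6 of 6) also had their lowest sum in SV1 (19.9 CPM) and their highest in SL4 (39.1 CPM). The ends of these sums were the ends of *Reg3b* turned round, with a median r with *Reg3b* of -0.54, -0.74 and -0.54 over the lists, and no member of them passed for either gene. *Alb*, a liver transcript, was at most 3.18 CPM in Str.

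Whether Str mice spread more than Con mice was tested on the absolute deviations of log2 CPM from the group median (limma, 15876 genes). No gene passed at an adjusted p under 0.05 in either direction (0% called), with 658 at an unadjusted p under 0.05, of which 467 spread more in Str, and a smallest adjusted p of 0.647. Without SL4 it was 458 genes, of which 261 spread more in Str. The median SD over 13516 genes was 0.165 in Str and 0.149 in Con, and 58.0% of genes had the larger SD in Str. *Fut2* was among the genes of smallest p that spread more in Str (p = 2.98e-04, adjusted p = 0.647 from limma). Its SD was 0.53 in Str and 0.14 in Con. *Cd38* had an SD of 0.58 in Str and 0.06 in Con, *Ptk6* 0.87 and 0.16, and *Clca4b*, a calcium-activated channel regulator, 1.55 and 0.25. Without SL4 the SD in Str was 0.49 for *Fut2*, 0.31 for *Cd38*, 0.42 for *Ptk6* and 1.31 for *Clca4b*. *Clca4b* had 6.67 CPM in SL4, a median of 53.3 CPM and 159 CPM in SL2, against 5.98 to 10.4 CPM in Con, and it ranked 13th by SD in Str. *Apoe* was among the genes that spread less in Str, with an SD of 0.26 in Str and 0.86 in Con. 4 Con libraries held 69.3 to 79.9 CPM of the liver transcript *Alb*, and Str libraries held 1.64 to 3.18 CPM.

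**Figure D5:**
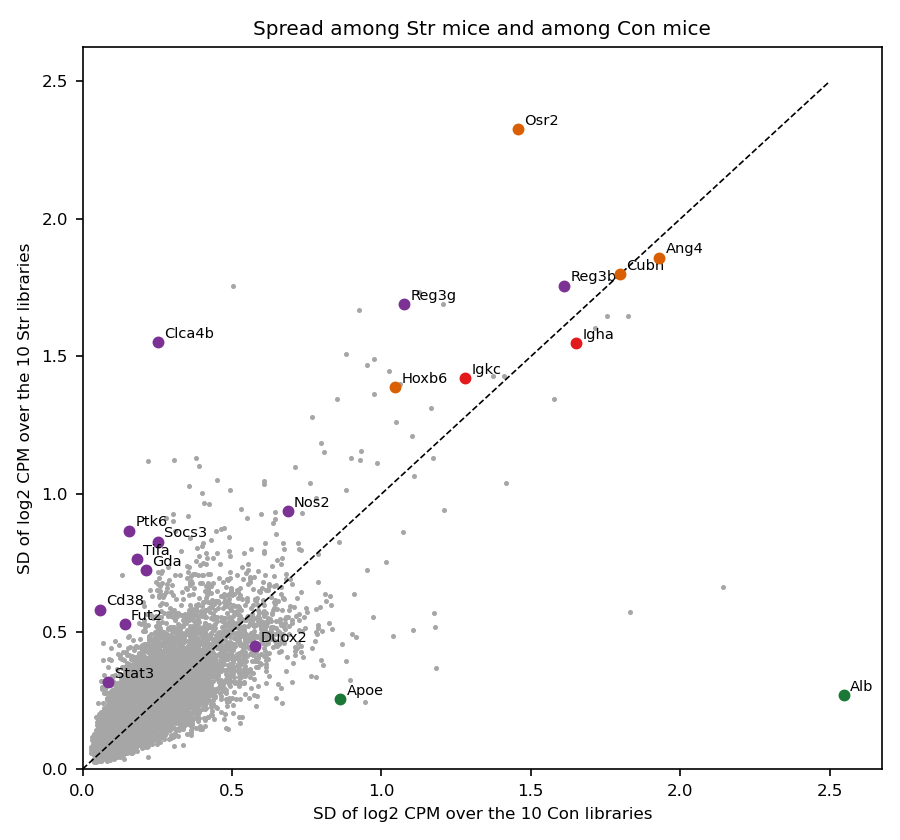
SD of log2 CPM over the 10 Str libraries (y axis) against that over the 10 Con libraries (x axis) for 13516 genes, 1 point per gene, with the line of equal SD dashed. *Stat3*, *Ptk6*, *Cd38* and *Clca4b* lie above the line, *Ang4* and *Igha* near it and *Alb* far below it, and no gene passed the test of the difference.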

How the data were processed

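RNA of colonic IECs from 10 Str and 10 Con mice was sequenced after ribosomal RNA depletion with a strand-marking kit. The authors aligned reads to GRCm38.p4 with STAR and deposited 1 table of HTSeq counts per gene and library, whose strand setting is not given in the sources used here. Of its columns, 20 that hold normalized values were not used. Library groups came from the first letter of the column names.

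Counts of 15876 genes were scaled by TMM (edgeR 4.0.16, R 4.3.3), and log2 CPM used a prior count of 2. Genes with a mean of at least 1 CPM over 20 libraries were ranked by SD. Slopes on log2 CPM of *Stat3* or *Reg3b* were fitted by edgeR's quasi-likelihood test over all genes, the covariate gene left out, and called at a Benjamini-Hochberg adjusted p under 0.05. Spread was compared by limma 3.58.1 on absolute deviations. Correlations took 100000 permutations (two-sided). Alternatives were DESeq2 1.42.0, limma-voom, other size factors, filters, priors and covariates, and leaving out each library. On simulated data only the slope test and a copy of the spread test were run.

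Genes named were those the study followed, the 20 of largest SD, the 10 of smallest p in each direction for each covariate, up to 3 members of largest SD and the member of smallest p of each list, and the 8 and 4 of smallest p that spread more and less in Str. Other called list members, *Alb*, *Ankrd37*, *Mfsd2a*, *Prap1*, *Slc10a2* and HOX genes beyond the lists were chosen after their values were seen. The members and lists were chosen with earlier results of these data known. Sequences are from RefSeq (GRCm38.p6). Some genes are not reported here.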

Additional observations from a re-analysis of the deposited data

Results flagged for a closer look

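Of 69 genes described over the 10 Str libraries, 13 had 1 library whose gap to its nearest neighbour took a larger share of the whole range of log2 CPM than Dixon's critical value for 10 samples, and in each of them that library was SL4. Chance flags about 1 in 20 groups that were not selected. Many of these genes were chosen for their spread or slopes in the same libraries, and genes that move together are not independent. The count therefore cannot be set against that rate. SL4 was the lowest library for *Stat3* (share of the range 0.469), *Ptk6* (0.594), *Cd38* (0.529), *Gda* (0.522), *Clec2h* (0.509) and *Alpk1* (0.488). It was also the lowest for *Slc5a9* (0.511), *Daglb* (0.501), *Zbp1* (0.474) and the uncharacterised RNA *LOC102632231* (0.626). SL4 was the highest library for the immunoglobulin genes *Igkc* (0.713), *Igha* (0.587) and *Igj* (0.577). Among the 69 genes, 52 had SL4 within the range of the Con libraries. For 23 of these the 9 other Str libraries were above every Con library. In others of the 52 more Str libraries lay within that range, such as all 10 for *Retnlb*.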

How the results depend on the processing

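Counts of genes that followed *Stat3* (376) stayed within 1.5 times under other size factors, the filter at 1 CPM, limma-voom, robust dispersions and the letter V or L as a covariate. DESeq2 called 877, and fewer genes passed with *Reg3b* (51) or *Osr2* (23) as a covariate, with *Osr2* and without SL4 (4, chosen after the data were seen, as was *Osr2*), and without both farthest libraries (1). Leaving out 1 library gave 65 to 386 genes. For *Reg3b* (10 genes) DESeq2 called 191, robust dispersions 4, the letter 0, *Stat3* as a covariate 0, *Osr2* 36, *Osr2* without SL4 3 (*Clca4b*, *Mal* and *Reg3g*), the fit without both farthest libraries 0, and leaving out 1 library 0 to 14. In the joint fit, leaving out 1 library gave 7 to 127 genes for *Stat3* and 0 to 81 for *Reg3b*. Correlations past the adjusted threshold (108 of 408) numbered 0 without both farthest libraries (49 unadjusted) and 23 to 122 with 1 library left out. For spread, deviations from the group mean called 3 genes (*Alb*, *Rbp4* and *Serpinc1*, all smaller in Str), and leaving out 1 library called 0 or 1 (*Gm10327*, without SV2). Of the 100 genes of largest SD, 60 remained with no filter, 30 with a mean of at least 10 CPM, and 80 to 97 with 1 library left out. The slope of *Igkc* on *Stat3* was -4.65 to 0.31 with 1 library left out, turning to 0.31 without SL4 and to 0.16 without both farthest libraries, and that of *Pdk4* to 1.43 with *Osr2* and without SL4. Beyond what fewer libraries do to a test, the cause was not tested. With 10 libraries, genes of few counts have a spread near counting error. The numbers in the column names are not explained in the sources used here, and libraries of 1 number deviated together only in part (r -0.11 to 0.21 over 5 pairs, with 2 of the 5 V libraries nearest to the L library of their own number). With the number as a replicate block, chosen after the data were seen, 16 genes passed for *Stat3* and 2 for *Reg3b* (*Mal* and *Reg3g*), and with letter and number as a block 0 passed for spread (599 unadjusted). The joint fit was not blocked.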
